A study of Homo sapiens and Mus musculus with 27 samples.

Results

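The genes described are the replication-dependent histone genes, taken as every gene name that matches the current symbols of the clustered histones (H1-1 to H1-6, H2AC, H2BC, H3C and H4C followed by a number) or the older HIST1 to HIST4 names, whatever the letter case. The rule found 81 of the 59453 gene names in each of the 2 human tables and 61 of the 55367 names in the mouse table. Of the 81 human names, 67 are protein-coding in RefSeq, 11 are pseudogenes, 2 are transcribed pseudogenes and 1 is a long noncoding RNA. By class they hold 9 H1, 21 H2A, 21 H2B, 15 H3 and 15 H4 names, with 66 on chromosome 6, 13 on chromosome 1 and 2 on chromosome 3. The pair on chromosome 3, the linker histone gene H1-10 and its antisense RNA H1-10-AS1, was caught by the pattern alone. H1-10 is replication-independent, so it is described apart. H1-10 and H1-10-AS1 were left out of summed CPM, calls by class and counts of clustered names. They remain in the counts and medians of all members and in the shares of library counts. The 61 mouse names hold 20 H2A, 17 H2B, 12 H3 and 12 H4 genes, 51 on chromosome 13 and 10 on chromosome 3, and no H1 gene, since the mouse table spells those H1f1 to H1f6.

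Nucleosomes wrap DNA around the core histones H2A, H2B, H3 and H4, and linker histone H1 binds where the DNA enters and leaves. The clustered genes supply these proteins in S phase, when new DNA is packaged, and most of their mRNAs end in a conserved stem-loop in place of a poly(A) tail. The stem-loop is bound by SLBP, and NPAT activates transcription of the clusters. Some of these genes can also give a polyadenylated transcript when a poly(A) signal further downstream is used, as described for differentiating and nondividing cells. A selection for poly(A) therefore keeps a small share of histone RNA, and depletion of ribosomal RNA keeps both forms.

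RNA was sequenced in 27 libraries from 3 experiments, each with 3 groups of 3 replicates. The first used the human breast cancer line LM2, a lung-metastatic derivative of MDA-MB-231, with caMKL1 overexpression, overexpression of wild-type MKL1, or control treatment. The second applied the same 3 treatments to 4T1, a mouse mammary carcinoma line. The third used LM2 cells labelled wild type that were negative for LifeAct, an actin-binding peptide used as a reporter, or had low or high expression of it. MKL1, now named MRTFA, is a coactivator of the transcription factor SRF that is held in the cytoplasm by monomeric actin, and the prefix ca is commonly used for a constitutively active form. The genotype label was wild type in the control and MKL1 samples, and in the caMKL1 samples it read caMKL1 for replicate 1, caMKL2 for replicate 2 and caMKL3 for replicate 3, although title and treatment gave caMKL1 for all of them. The labels give neither construct sequence nor promoter, and they do not say whether replicates were separate cultures, so p-values measure only the spread between these samples. LM2 and 4T1 RNA was selected for poly(A), and LifeAct RNA was depleted of ribosomal RNA, so these 2 kinds of library are described apart. In bulk RNA, more cells that express a gene and more RNA per cell cannot be told apart.

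The LM2 libraries held 22147429 to 32147377 counts each, those of 4T1 held 21896459 to 29370432, and the LifeAct libraries 15581289 to 23678322. MRTFA averaged 218.3 CPM (counts relative to the TMM-scaled library total) in caMKL1, 162 in MKL1 and 10.8 in control LM2 cells, and Mrtfa averaged 624, 2145 and 39.2 CPM in the same groups of 4T1 cells. Several cell type markers moved with the groups in LM2: the mesenchymal marker VIM averaged 6292, 2502 and 1598 CPM in caMKL1, MKL1 and control cells. The epithelial keratin KRT19 averaged 827, 48.9 and 35.1 CPM, KRT8 716, 260 and 174 CPM and EPCAM 34.1, 15.6 and 13.5 CPM in the same groups. The keratin KRT18 did not follow this order, at 157.05, 178.95 and 138.3 CPM. CDH1, the epithelial cadherin, averaged 0.471 CPM or less in each LM2 group. Cdh1 averaged 913, 1001 and 670 CPM in caMKL1, MKL1 and control 4T1 cells. In the same 4T1 groups Epcam averaged 71.7, 177.55 and 216.9 CPM and Krt19 366.9, 108.9 and 54.6 CPM. Krt8 and Krt18 were also highest in caMKL1 and lowest in control 4T1 cells. In LifeAct-negative, low and high cells, KRT19 averaged 251.4, 156.3 and 82.6 CPM and the endothelial marker PECAM1 92.5, 29.9 and 7.47 CPM. CDH5, the other endothelial marker examined, averaged 0.324, 0.174 and 0.142 CPM in the same order. KRT8 averaged 353.1, 386.5 and 368.4 CPM there. What part any of these markers had in the histone differences was not tested. In LM2, replicate 1 of caMKL1 and replicate 1 of MKL1 stood apart from the other replicates of their groups. Mitochondrial RNA took 7.76% of counts in caMKL1 replicate 1 and 13.4% and 13.6% in the other caMKL1 libraries. It took 6.18% in MKL1 replicate 1 and 9.87% and 7.11% in the other MKL1 libraries. Counts of called members in LM2 and the linker histone differences between the lines are also given without these 2 libraries.

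Histone RNA made up a small share of the polyadenylated libraries and a larger share of the ribosome-depleted ones. In LM2 the 81 names, H1-10 and H1-10-AS1 included, took 0.00697 to 0.0286% of all counts. H1-10 alone gave 398 of the 1600 member counts in control replicate 1 and 127 of 8184 in caMKL1 replicate 1. The share was 0.00118 to 0.00199% for the 4T1 names, which hold no H1 gene, and the LifeAct libraries held 0.206 to 0.4%. In LM2, 22 of 81 members passed the filter on low counts and 23 had no count in any library. In 4T1, 7 of 61 passed and 8 had no count. In the LifeAct experiment, 46 of 81 passed and 9 had no count. The same 22 human members passed in both human experiments, and a further 24 passed in the LifeAct experiment alone.

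Sequences of the 3′ ends show which human histone models contain both the stem-loop and room for a later poly(A) signal. Of 77 members matched to GENCODE v29 (GRCh38), 28 held a match to the histone stem-loop consensus of 16 bases, searched on the transcript strand, against 0.114% of all 58676 GENCODE genes. Of these 28, 22 ran on for at least 100 bases beyond the stem-loop, and 16 of those carried AATAAA in the last 60 bases. The windows below are shown for the H2B gene with the highest fold change with caMKL1 (H2BC21), for an H2A and an H4 gene followed throughout (H2AC11 and H4C14), for H4C9, which differed from its class in the LifeAct experiment, and for H2BC5, where the transcript with the stem-loop ends soon after it. Capitals mark the stem-loop, and sequences are 5′ to 3′ on the transcript strand.
H2BC21 stem-loop: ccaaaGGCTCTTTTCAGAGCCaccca
H2AC11 stem-loop: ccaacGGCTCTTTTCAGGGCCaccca
H4C14 stem-loop: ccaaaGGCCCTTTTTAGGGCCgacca
H4C9 stem-loop: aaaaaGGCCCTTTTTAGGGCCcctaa
H2BC5 stem-loop: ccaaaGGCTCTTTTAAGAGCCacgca

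These stem-loops lie at chr1:149886188-149886203 (minus strand, H2BC21), chr6:27133515-27133530 (plus, H2AC11), chr1:149833032-149833047 (plus, H4C14), chr6:27139654-27139669 (plus, H4C9) and chr6:26158587-26158602 (plus, H2BC5). The transcripts with the stem-loop continue for 1729 bases after it in H2BC21, 1761 in H2AC11, 1167 in H4C14, 212 in H4C9 and 39 in H2BC5. The counted model of H2BC5 spans chr6:26158146-26171349 and also takes in a spliced transcript that ends far downstream. The commonest core, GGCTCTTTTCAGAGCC, was found in 13 members, and the H4C14 and H4C9 core, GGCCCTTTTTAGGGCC, in 3. H1-2, H1-4 and H2BC12 had no match in their models. A model that stops before the stem-loop gives no match, so this does not show that the stem-loop is absent. The longest searched models of these 3 genes had 642, 754 and 381 bases, against 731, 787 and 495 exon bases in the counted models. In H2BC21 the AATAAA stands 1705 bases past the end of the stem-loop at chr1:149884477-149884482, and in H2AC11 it stands 1738 bases past it at chr6:27135269-27135274. The poly(A) signals of these genes, in capitals, are shown with that of H4C14 because they lie downstream of the stem-loop within the same annotated transcript.
H2BC21 poly(A) signal: gctattgttattAATAAAgttaccaattaa
H2AC11 poly(A) signal: gcctaaattcatAATAAAgtgaaatgttca
H4C14 poly(A) signal: tacacatttaagAATAAAcagtccagtagt

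Members with such extended models made up much of what was measurable after poly(A) selection. In LM2, 12 of the 22 extended models passed the filter, against 8 of the other 57 clustered names. In the LifeAct libraries, 16 of the 22 passed, against 28 of the other 57. These other names include pseudogenes, names without a GENCODE model and models that may stop before the stem-loop. Split by exon length, 16 of 32 names over 600 bases passed in LM2 and 4 of 47 at or under 600 bases, against 21 of 32 and 23 of 47 in the LifeAct libraries. A longer model also collects more counts, and the part of length in these shares was not tested.

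The promoters of the set shared short elements. RefSeq promoters (GRCh38.p14, 250 bases before to 50 after the start) were matched for 62 members and searched on both strands. TATAAA was found in 42 of them (67.7%, against 12% of all 27305 promoters) and CCAAT in 52 (83.9%, against 35.7%). The octamer ATTTGCAT, a site of POU factors known from H2B promoters, was found in 26 (41.9%, against 1.8%). It stood in 14 of 17 H2B, 11 of 15 H2A and 1 of 11 H3 promoters and in 0 of 12 H4 and 0 of 7 H1 promoters. Many H2A and H2B genes are transcribed head to head and share one promoter stretch, so their matches are not separate. The promoter matched to H3C4, the 1 H3 promoter with the octamer, is the same stretch as that of H2AC7, so its matches were counted again. The CArG box, the sequence class bound by SRF, matched in 2 promoters (3.23%, against 1.29% of all), those of H2AC20 and H2BC21. Each pair below is the stretch between the RefSeq starts, on the plus strand, with the H2B gene running to the left and the H2A gene to the right. The pairs are shown because their 4 genes rose with caMKL1 in LM2. Capitals mark these 4 elements on either strand.
H2BC21/H2AC20 shared promoter: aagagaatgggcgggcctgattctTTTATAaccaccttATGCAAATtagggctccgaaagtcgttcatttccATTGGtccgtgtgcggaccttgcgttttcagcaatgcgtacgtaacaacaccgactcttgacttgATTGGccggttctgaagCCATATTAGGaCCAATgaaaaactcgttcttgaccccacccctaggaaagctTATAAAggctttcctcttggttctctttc
H2BC11/H2AC11 shared promoter: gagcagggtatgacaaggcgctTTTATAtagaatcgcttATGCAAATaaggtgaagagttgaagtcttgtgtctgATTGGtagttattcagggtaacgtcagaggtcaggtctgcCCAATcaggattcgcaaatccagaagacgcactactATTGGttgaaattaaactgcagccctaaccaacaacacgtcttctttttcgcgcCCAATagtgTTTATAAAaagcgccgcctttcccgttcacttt

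The H2BC21/H2AC20 stretch, chr1:149886683-149886917, spans 235 bases and holds 2 matches to TATAAA, 3 to CCAAT, 1 to the octamer and 1 to the CArG box. The H2BC11/H2AC11 stretch, chr6:27132796-27133042, spans 247 bases and holds 3, 4, 1 and 0 matches. In neither stretch did matches to different motifs overlap. A match describes the letters and does not show binding.

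Polyadenylated histone RNA was higher with caMKL1 than in either other group of LM2 cells, in the summed CPM of each of the 5 classes. Summed over the 79 clustered names, it was 300.01 ± 14.1 CPM in caMKL1, 81.5 ± 20.1 CPM in MKL1 and 46.1 ± 1.76 CPM in control cells (SD, n = 3 each). Of the 22 members tested against control, 20 rose and 1 fell by edgeR's quasi-likelihood test at an adjusted p under 0.05, where 31.9% of all tested genes rose and 33% fell. The median difference of the 22 was 2.61 on the log2 scale, and it kept that value with the 2 genes at 0 in control set to their bound, against -0.05 over all genes. The risers were 2 of 2 H1, 5 of 5 H2A, 10 of 10 H2B, 1 of 1 H3 and 2 of 2 H4 genes tested. They include 8 genes that passed the low-count filter only through other groups, among them the 1 H3 gene.

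The filter bears on this count. Of the 22 members, 14 would have passed on the control libraries alone, and 12 of these rose and 1 fell. The other 8 (H1-4, H2AC12, H2AC20, H2AC21, H2BC6, H2BC11, H2BC18 and H3C10) passed through their level in the other groups, so that a difference was built in for them. This holds also for the fold changes and p-values given for them below. Scaling by library totals instead of TMM factors shifted the median of all genes to -0.46 and gave 4137 genes higher and 9271 lower, against 6030 higher and 6241 lower. Under it 20 members remained higher and 2 lower. Without replicate 1 of caMKL1 and MKL1, an alternative chosen after seeing the data, 21 of 23 members tested were higher and 1 lower, and without control replicate 2 the lower count was 2. Without replicate 1 of both, the log2 differences from control were 3.32 for H1-4, 7.21 for H2BC21, 3.02 for H2AC11 and -2.92 for H1-10.

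**Figure D1:**
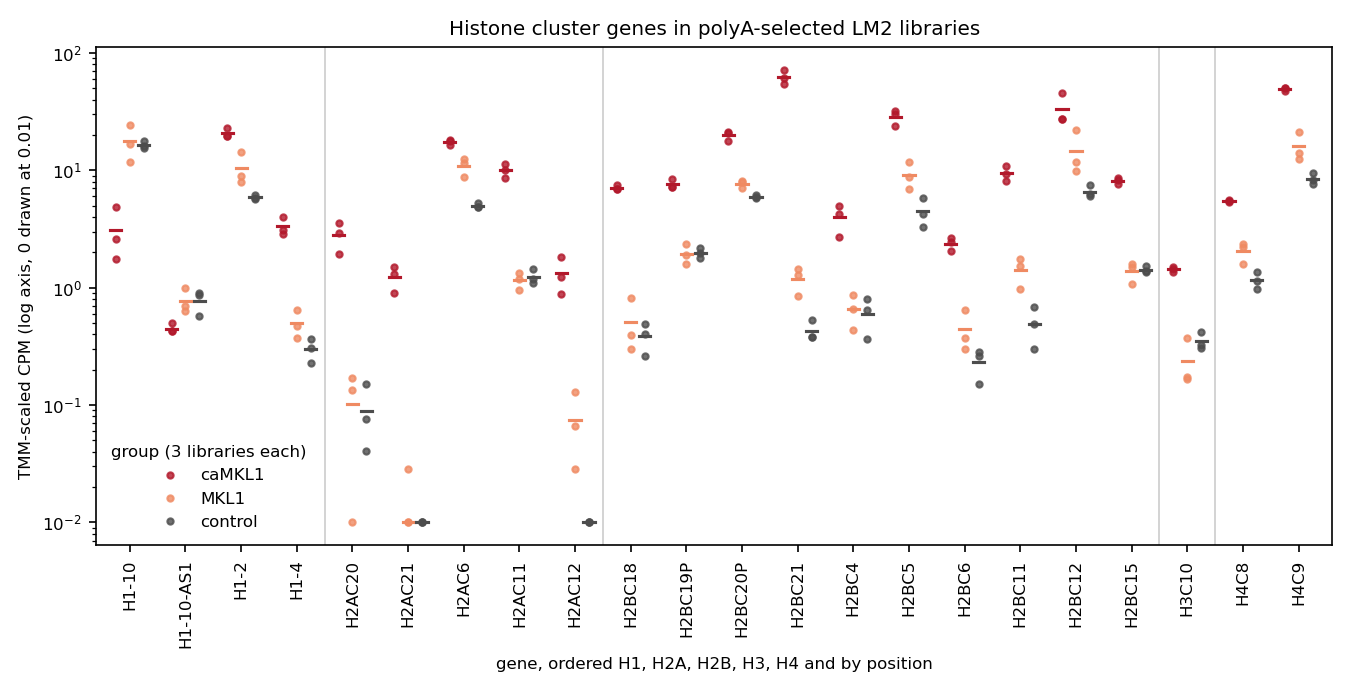
Histone members that passed the low-count filter in LM2, with CPM on a log axis for each library of the caMKL1, MKL1 and control groups (points are libraries, bars group means, and 0 is drawn at the bottom). The caMKL1 libraries lie above the control libraries for each clustered gene tested, 8 of which passed the filter only through other groups. The share of all genes separated in this way was not counted. H2BC21 lies at 54.6 to 71.9 CPM in caMKL1 cells and at 0.377 to 0.528 CPM in control cells, while H1-10 lies below control.

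The linker histones that were tested rose. H1-4, a linker histone found in most somatic cells, had 4.00, 3.10 and 2.88 CPM in caMKL1, 0.468, 0.650 and 0.370 CPM in MKL1 and 0.365, 0.304 and 0.226 CPM in control libraries. The caMKL1 libraries stood clear of both other groups, and MKL1 lay just above control. H1-4 was 11.1-fold higher with caMKL1 (log2 3.47, SE 0.306, edgeR adjusted p = 6.38e-08), while the MKL1 difference of 0.69 did not pass (edgeR adjusted p = 0.262). H1-2, another main somatic linker histone, had 23.0, 19.7 and 19.6 CPM in caMKL1, 14.4, 8.92 and 7.99 CPM in MKL1 and 5.85, 5.70 and 6.11 CPM in control libraries. The 3 groups did not overlap, and H1-2 was 3.53-fold higher with caMKL1 (edgeR adjusted p = 4.35e-07) and 1.77-fold higher with MKL1 (edgeR adjusted p = 0.0102).

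H1-10 went the other way. It had 4.88, 2.59 and 1.74 CPM in caMKL1, 24.5, 11.7 and 16.6 CPM in MKL1 and 16.2, 17.8 and 15.6 CPM in control libraries. The caMKL1 libraries lay below all others, and MKL1 spread around control. It fell by 2.39 on the log2 scale with caMKL1 (SE 0.296, edgeR adjusted p = 3.06e-06) and differed by 0.10 with MKL1 (edgeR adjusted p = 0.85). It was the one member that fell.

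H2A genes encode a core subunit that pairs with H2B. H2AC11 had 9.999, 11.4 and 8.64 CPM in caMKL1, 1.34, 0.953 and 1.19 CPM in MKL1 and 1.18, 1.44 and 1.09 CPM in control libraries. All 3 caMKL1 libraries were high, and MKL1 overlapped control. H2AC11 was 8.05-fold higher with caMKL1 (log2 3.01, SE 0.201, edgeR adjusted p = 2.27e-09) and differed by -0.08 with MKL1 (edgeR adjusted p = 0.866). H2AC6 averaged 17.5 ± 0.834 CPM in caMKL1, 10.9 ± 1.97 CPM in MKL1 and 4.99 ± 0.216 CPM in control cells (SD, n = 3). H2AC20, the partner of H2BC21, averaged 2.80 ± 0.803 CPM in caMKL1, 0.101 ± 0.0898 CPM in MKL1 and 0.0891 ± 0.0563 CPM in control cells (SD, n = 3). Named because control was at 0, H2AC12 and H2AC21 were chosen after their values were seen. H2AC12 had 23, 39 and 25 counts in caMKL1 libraries and 0 in all control libraries, at least 33.3-fold higher against a floor of 3 counts over the group. H2AC21 had 39, 28 and 18 counts in caMKL1 libraries and 0 in control, at least 32.6-fold higher.

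Each H2B gene tested rose, though H2BC6, H2BC11 and H2BC18 had passed the filter only through other groups. H2BC21 stood furthest from control among members with counts in each control library. H2BC21 (chr1:149884459-149886652, 1 exon, minus strand), a gene described to yield polyadenylated mRNA outside S phase, had 61.6, 71.9 and 54.6 CPM in caMKL1, 1.27, 1.43 and 0.853 CPM in MKL1 and 0.528, 0.380 and 0.377 CPM in control libraries. The groups did not overlap, and caMKL1 libraries were far above both others. It was 146-fold higher with caMKL1 (log2 7.19, SE 0.209, edgeR adjusted p = 2.17e-13) and 2.70-fold higher with MKL1 (edgeR adjusted p = 0.00398). H2BC11, the partner of H2AC11, averaged 9.40 ± 1.36 CPM in caMKL1, 1.41 ± 0.396 CPM in MKL1 and 0.491 ± 0.191 CPM in control cells (SD, n = 3). H2BC11 was 19-fold higher with caMKL1 (edgeR adjusted p = 2.11e-09) and 2.82-fold higher with MKL1 (edgeR adjusted p = 0.00698). H2BC18, which shares 91 exon bases with FCGR1A on the other strand, was 18.1-fold higher with caMKL1, H2BC6 was 9.98-fold and H2BC4 6.47-fold higher.

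The most abundant member per exon length, H2BC12, rose less. It had 45.5, 27.4 and 27.6 CPM in caMKL1, 22.2, 11.8 and 9.87 CPM in MKL1 and 7.43, 6.30 and 6.00 CPM in control libraries. Replicate 1 was the highest of both overexpression groups, and no group overlapped control. Averaged over all LM2 libraries, H2BC12 stood at 36.8 CPM per kb, H4C9 at 19.0, H1-2 at 16.9, H2BC5 at 16.2, H2BC21 at 9.78 and H2AC6 at 6.67 CPM per kb. Within a group the order differed: H2BC21 stood at 28.6 CPM per kb in caMKL1 cells, level with H1-2 at 28.4, and at 0.195 CPM per kb in control cells, far below H1-2 at 8.05. The pseudogene H2BC19P and the transcribed pseudogene H2BC20P were 3.83-fold and 3.34-fold higher with caMKL1. They share 1989 exon bases on opposite strands and so cannot be told apart without strand.

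For H3 and H4, few genes were measurable. H3C10, the one H3 gene tested, averaged 1.43 ± 0.0682 CPM in caMKL1, 0.237 ± 0.115 CPM in MKL1 and 0.348 ± 0.0590 CPM in control cells (SD, n = 3), 4.08-fold higher with caMKL1 than in control. H4C9 had 49.9, 47.4 and 50.2 CPM in caMKL1, 21.3, 12.6 and 14.1 CPM in MKL1 and 9.42, 7.60 and 8.22 CPM in control libraries. The 3 groups did not overlap, with caMKL1 highest. H4C9 was 5.85-fold higher with caMKL1 (edgeR adjusted p = 2.06e-09) and 1.90-fold higher with MKL1 (edgeR adjusted p = 0.00179). H4C14 did not pass the filter: it had 23, 10 and 11 counts in caMKL1, 3, 1 and 2 in MKL1 and 3, 4 and 0 in control libraries, higher in each caMKL1 library than in any other.

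Wild-type MKL1 gave a smaller difference in LM2. Against control, 8 of 22 tested members rose and 0 fell, where 7.25% of all genes rose and 4.74% fell, and 10 members had an unadjusted p under 0.05. DESeq2 also called 8 higher and 0 lower. The 8 were H1-2, H2AC6, H2BC5, H2BC11, H2BC12, H2BC21, H4C8 and H4C9, with fold changes of 1.75 (H4C8) to 2.82 (H2BC11). The median of the 22 was 0.75 on the log2 scale, the same with H2AC12, at 0 in control, set to its bound of 1.76-fold, against 0.01 over all genes. Under library totals 918 genes were higher and 1241 lower, against 1369 and 896 with TMM factors, and 7 members stayed higher. Of the 14 members that passed in control alone, 7 rose. H4C8 (edgeR adjusted p = 0.0296) was not called under library totals, in a fit of these 2 groups only or without any 1 of MKL1 replicates 1 and 2 and control replicates 1 and 2 (edgeR adjusted p of 0.0504 to 0.124), nor was H2BC12 without control replicate 3 (edgeR adjusted p = 0.0668). Without replicate 1 of both overexpression groups 7 members rose, and the log2 differences of H2BC12, H1-2 and H4C9 were 0.71, 0.52 and 0.67.

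Set against MKL1, caMKL1 gave 20 of 22 members higher and 1 lower, where 32.6% of all genes were higher and 31.9% lower. Of the 16 members that would have passed on the MKL1 libraries alone, 14 were higher and 1 lower, while H2AC12, H2AC20, H2AC21, H2BC6, H2BC18 and H3C10 passed through the other groups. This comparison shares its caMKL1 libraries with the one against control. Their median difference was 2.49 on the log2 scale, against -0.04 over all genes. H2AC21, with 85 counts over the caMKL1 libraries and 1 over the MKL1 libraries, had a ratio of 111 (exact 95% counting interval 19.4 to 4440, counting error only). Without MKL1 replicate 1 the lower count was 2. Without replicate 1 of both groups 21 of 23 tested were higher and 1 lower, with a median of 2.37. Here library totals gave 4425 genes higher and 8635 lower, against 6150 and 6029 with TMM factors.

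**Figure D2:**
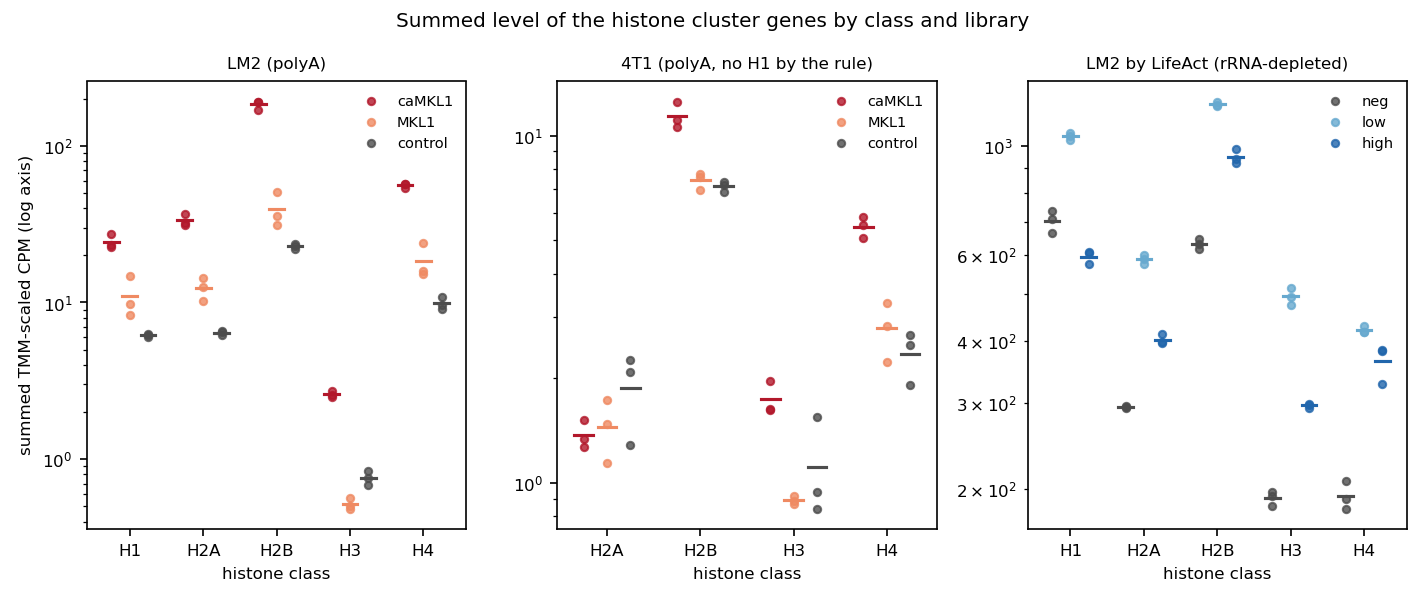
Summed CPM of the clustered histone names by class (H1, H2A, H2B, H3, H4) in each library on log axes, with bars at group means, for LM2, 4T1 and the LifeAct experiment. In LM2 the caMKL1 group is highest in each class, and in the LifeAct experiment the low group is highest, with the high group below the negative group for H1 alone.

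The histone RNA of caMKL1 LM2 cells rose while genes of DNA replication fell. Of 21 replication genes tested (MCM helicase subunits, polymerases, loading factors and ribonucleotide reductase, among others), 0 rose and 21 fell against control, with a median of -1.92 on the log2 scale. Over all genes tested, 31.9% rose and 33% fell in this comparison, which is the background for these lists too. RRM2, the small subunit of ribonucleotide reductase, averaged 35.7 ± 2.63 CPM in caMKL1 and 223 ± 31.98 CPM in control cells (SD, n = 3) and fell by 2.64 on the log2 scale. Of 17 histone chaperones 4 rose and 12 fell, among them CHAF1A, a subunit of the replication-coupled assembly factor CAF-1 (-2.11), ASF1B (-2.79) and HJURP, the CENP-A chaperone (-2.56). Of 11 histone variants and other replication-independent histones, a list that includes H1-10, 2 rose and 4 fell, among them CENPA, the centromeric H3 variant, by 3.03. The count of falling variants was 8 without replicate 1 of caMKL1 and MKL1.

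Factors that transcribe and process histone mRNA went both ways in LM2. Of 20 tested, 5 rose and 11 fell with caMKL1 against control, again beside 31.9% and 33% of all genes. NPAT, the cluster activator, averaged 166 ± 15.5 CPM in caMKL1 and 86.6 ± 5.19 CPM in control cells (SD, n = 3), 1.91-fold higher. LSM11, of the U7 particle that cleaves histone pre-mRNA, was 1.84-fold higher and the cleavage factor gene PCF11 1.85-fold higher. CSTF3, a subunit of the cleavage stimulation factor, averaged 40.7 ± 2.65 CPM in caMKL1 and 66.0 ± 2.45 CPM in control cells (SD, n = 3) and fell by 0.70. CASP8AP2, which acts with NPAT at histone loci, fell by 1.02 and the cleavage factor gene CPSF2 by 0.68, both named after their values were seen. SLBP, chosen after its values were seen because its protein binds the stem-loop, averaged 42.3 ± 2.58 CPM in caMKL1 and 75.1 ± 9.04 CPM in control cells (SD, n = 3) and fell by 0.83 on the log2 scale (edgeR adjusted p = 1.99e-05). With MKL1, 3 of 21 replication genes, 1 of 17 chaperones and 1 of 20 processing genes rose, and 0 of each fell. Over all genes tested, 7.25% rose and 4.74% fell with MKL1. What part cell-cycle state and mRNA processing had in the histone differences was not tested.

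In 4T1 the polyadenylated histone signal was lower still, and a few genes moved. Summed over the 61 names it was 19.96 ± 1.39 CPM in caMKL1, 12.6 ± 0.872 CPM in MKL1 and 12.5 ± 1.01 CPM in control cells (SD, n = 3). These names hold no H1 gene, while the LM2 sum includes H1 at 24.4 CPM in caMKL1 and 6.18 CPM in control cells. The mouse H1 genes are described below, and H1f2 alone averaged 33.2 CPM in caMKL1 4T1 cells. Of 7 members tested against control with caMKL1, 4 rose and 0 fell, where 36.2% of all genes rose and 35.8% fell, and 4 had an unadjusted p under 0.05. Without a filter 9 rose and 2 fell, and DESeq2 called 8 higher and 1 lower. Leaving out control replicate 2, or control replicate 3, gave 7 higher. Of the 4 that passed in control alone, 2 rose, while H2ac8, H2bc8 and H4c14 passed through other groups. Library totals gave 4528 genes higher and 7580 lower, against 5900 and 5841 with TMM factors, and left the members' counts at 4 and 0.

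H2bc4, an H2B gene on chromosome 13, had 5.38, 5.64 and 4.90 CPM in caMKL1, 3.44, 3.22 and 2.47 CPM in MKL1 and 1.72, 1.61 and 1.62 CPM in control 4T1 libraries. The 3 groups did not overlap, with caMKL1 highest. H2bc4 was 3.22-fold higher with caMKL1 (log2 1.69, SE 0.159, edgeR adjusted p = 1.23e-09) and 1.85-fold higher with MKL1 (edgeR adjusted p = 0.000267). H4c14 had 1.42, 1.48 and 1.18 CPM in caMKL1, 0.261, 0.564 and 0.183 CPM in MKL1 and 0.191, 0.546 and 0.339 CPM in control libraries. The caMKL1 libraries stood apart and MKL1 overlapped control. H4c14 was 3.67-fold higher with caMKL1 (edgeR adjusted p = 5.21e-05), H4c9 2.11-fold and H2bc8 3.52-fold. H4c14 and H2bc8 had passed the filter only through other groups, so a difference from control was built into their values. H2bc21, the mouse gene of the same symbol as H2BC21, averaged 3.10 ± 0.568 CPM in caMKL1, 2.49 ± 0.350 CPM in MKL1 and 3.34 ± 0.224 CPM in control cells (SD, n = 3), a difference of -0.12 with caMKL1 (edgeR adjusted p = 0.526).

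MKL1 alone called 1 of 7 members higher, H2bc4, and 0 lower in 4T1, where 19.3% of all genes rose and 15% fell. There 2 members had an unadjusted p under 0.05, and DESeq2 also called 1 higher and 0 lower. H2bc21, with a log2 difference of -0.43 (edgeR adjusted p = 0.0557), passed as lower when scaled by library totals, fitted with a replicate block (edgeR adjusted p = 0.0401), fitted on these 2 groups only or fitted without MKL1 replicate 3. Library totals gave 2324 genes higher and 3868 lower, against 3144 and 2449 with TMM factors. caMKL1 against MKL1, which shares its caMKL1 libraries with the comparison above, gave 4 of 7 higher and 0 lower, where 33.8% rose and 32.8% fell. Of the 4 that would have passed on the MKL1 libraries alone, 2 were higher, and H2ac8, H2bc8 and H4c14 passed through the other groups. It had 4 members at an unadjusted p under 0.05, and DESeq2 called 6 higher and 0 lower. Without MKL1 replicate 2, or MKL1 replicate 3, 7 were higher. Library totals gave 4534 genes higher and 6690 lower there, against 5505 and 5353.

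**Figure D3:**
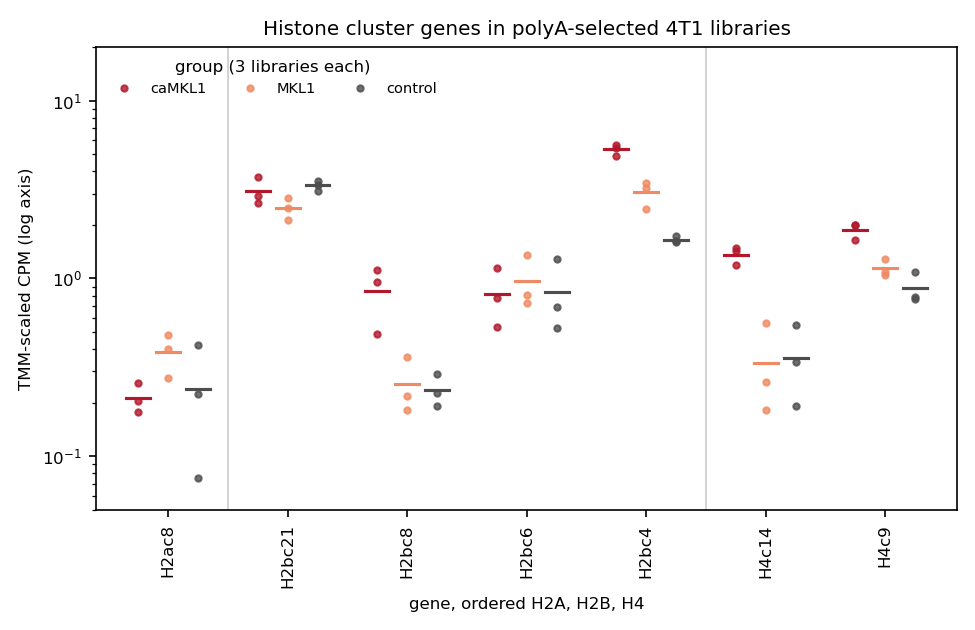
Histone members that passed the low-count filter in 4T1, with CPM on a log axis for each library of the caMKL1, MKL1 and control groups (bars are group means). H2bc4 is highest in caMKL1 (4.90 to 5.64 CPM) and lowest in control (1.61 to 1.72 CPM), and H2bc21 overlaps between caMKL1 and control.

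The mouse linker histones, which the gene-name rule does not take, allowed a comparison of both lines. H1f2, which the shared number pairs with H1-2, averaged 33.2 ± 3.17 CPM in caMKL1, 10.97 ± 2.84 CPM in MKL1 and 5.20 ± 1.34 CPM in control 4T1 cells (SD, n = 3). It was 6.38-fold higher with caMKL1 (edgeR adjusted p = 1e-14) and 2.1-fold higher with MKL1 (edgeR adjusted p = 8.2e-06). H1f4, paired with H1-4, had 0.667, 0.516 and 0.367 CPM in caMKL1, 0.783, 0.604 and 0.776 CPM in MKL1 and 1.22, 0.514 and 1.47 CPM in control 4T1 libraries. Control replicate 2 lay within the caMKL1 libraries, so the groups overlapped, and H1f4 fell by 1.02 on the log2 scale with caMKL1 (SE 0.364, edgeR adjusted p = 0.0152). H1f3, which had no human partner with enough counts, had 1.47, 2.10 and 1.84 CPM in caMKL1, 0.609, 0.765 and 0.685 CPM in MKL1 and 0.229, 0.193 and 0.979 CPM in control 4T1 libraries. Its caMKL1 libraries lay above all others, 3.94-fold higher than control (edgeR adjusted p = 5.1e-05). In 1 fit over both lines on names matched by symbol, the caMKL1 response of H1-4 was lower in 4T1 than in LM2 by a log2 difference of -4.62 (SE 0.491, edgeR adjusted p = 4.21e-08). That of H1-2 was higher in 4T1 by 0.73 (SE 0.275, edgeR adjusted p = 0.0271). In that fit 60.3% of the 13116 genes tested were called. Without replicate 1 of caMKL1 and MKL1 in LM2 the differences were -4.47 and 0.79, both called, but without 4T1 control replicate 1 that of H1-2 was 0.62 and was not called (edgeR adjusted p = 0.0657). For MKL1, the line differences of H1-2 (0.22, edgeR adjusted p = 0.654) and H1-4 (-1.25, edgeR adjusted p = 0.121) did not pass, where 19.9% of genes were called. Without 4T1 control replicate 2 that of H1-4 was -1.59 and passed (edgeR adjusted p = 0.0253).

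Replication genes fell with caMKL1 in 4T1 as well: 1 of 21 rose and 19 fell, where 36.2% of all genes rose and 35.8% fell. The median of these 21 was -0.74 on the log2 scale. Rrm2 averaged 66.7 ± 3.91 CPM in caMKL1 and 185 ± 2.20 CPM in control cells (SD, n = 3), and Slbp 52.3 ± 0.394 CPM and 111 ± 3.14 CPM. Both fell, Rrm2 by 1.47 and Slbp by 1.09 on the log2 scale (edgeR adjusted p = 6.29e-18 for Slbp). Of the related lists with MKL1, 0 of 21 replication genes rose and 20 fell in 4T1, and 1 of 20 processing genes rose and 8 fell. Over all genes tested, 19.3% rose and 15% fell with MKL1.

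In ribosome-depleted LM2 RNA, histone RNA was higher in both LifeAct-expressing groups than in LifeAct-negative cells, and highest at low expression. The summed level was on average 2014 CPM in negative (range 1942 to 2068), 3764 CPM in low (3741 to 3808) and 2609 CPM in high cells (2566 to 2685; n = 3 each), and the groups did not overlap. Low against negative gave 40 of 46 tested members higher and 3 lower, where 26% of all genes rose and 23.6% fell. High against negative gave 39 higher and 4 lower, where 36% rose and 35.2% fell. High against low gave 1 higher and 34 lower, where 26.6% rose and 23.7% fell. The 3 comparisons share libraries. Without H1-10 and H1-10-AS1, 44 members were tested, of which 2 fell at low and 2 at high expression, and 32 fell at high against low. Median log2 differences of the 46 were 1.24, 0.58 and -0.55 in that order, and those of all genes -0.01, -0.03 and -0.04.

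Nearly all of these members passed on the negative libraries alone. They were 43 of 46, of which 38 rose and 3 fell at low expression and 37 rose and 4 fell at high expression, and H2AC5P, H3C14 and H3C15 passed through the other groups. At least a 2-fold rise was called for 29 members at low and for 9 at high expression. The share of all genes at this cutoff was not counted, so these 2 counts have no background to be read against. Scaling by library totals gave 4655 genes higher and 6437 lower for high against low, against 5828 and 5176 with TMM factors, with 1 member higher and 38 lower.

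**Figure D4:**
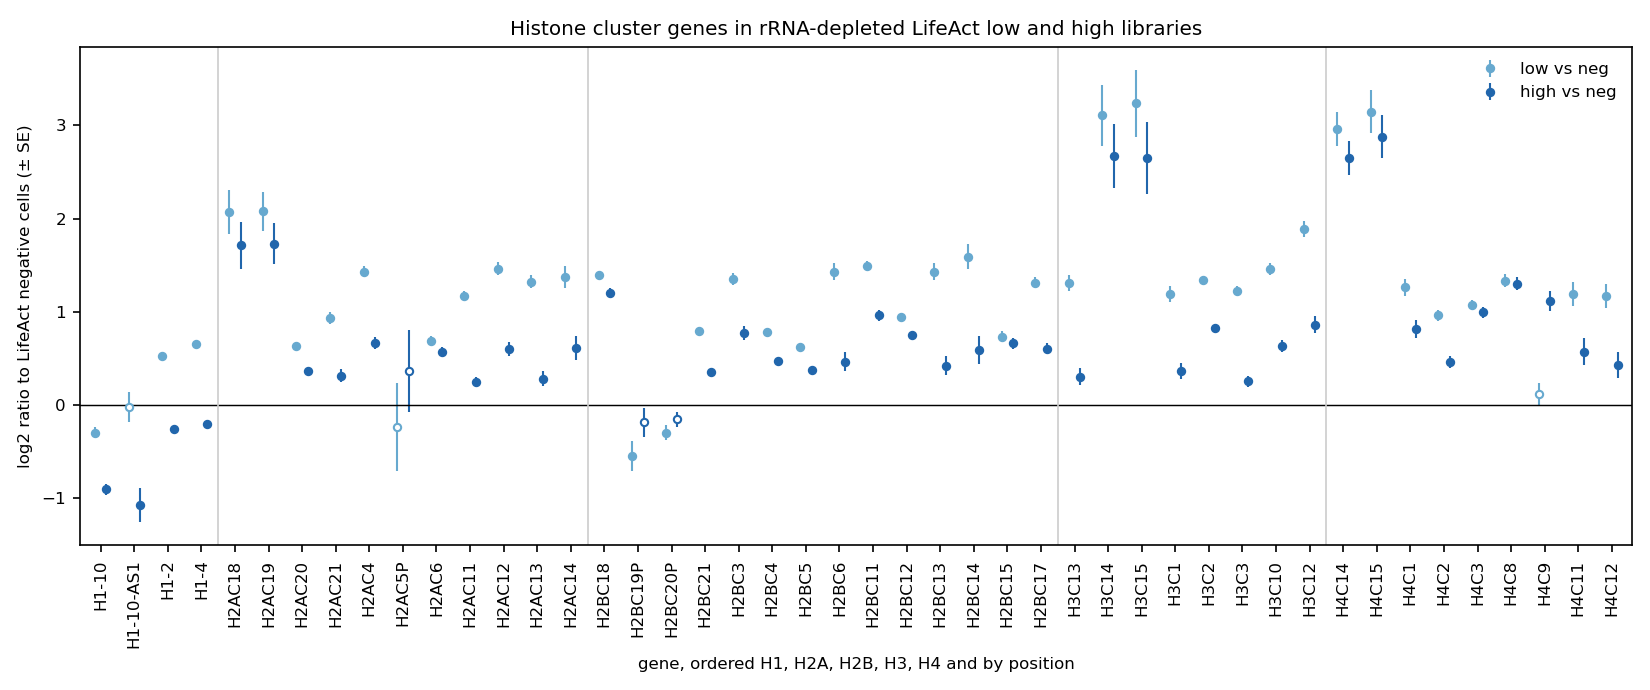
Fitted log2 ratio of each tested histone member in low and in high LifeAct cells relative to negative cells, with standard errors, grouped by class, filled where called by edgeR and open where not. Most members lie above 0 in both, with the low value above the high one, while H1-2 and H1-4 lie above 0 at low and below 0 at high expression and H4C9 lies higher at high expression.

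The linker histones split by LifeAct level. H1-2, at 623 CPM per kb the most abundant member over these libraries, had 442, 426 and 388 CPM in negative, 588, 599 and 611 CPM in low and 367, 327 and 351 CPM in high libraries. The 3 groups did not overlap, with low highest and high lowest. H1-2 rose 1.43-fold at low expression (edgeR adjusted p = 1.1e-10) and fell by 0.26 on the log2 scale at high expression (edgeR adjusted p = 8.92e-06). H1-4 had 293, 283 and 276 CPM in negative, 438, 449 and 450 CPM in low and 239, 246 and 253 CPM in high libraries, again with no overlap. H1-4 rose 1.57-fold at low expression (edgeR adjusted p = 2.81e-14) and fell by 0.21 at high expression (edgeR adjusted p = 2.69e-05). High against low, they fell by 0.78 and 0.86. The replication-independent H1-10 averaged 110 ± 8.10, 89.1 ± 4.26 and 58.2 ± 5.49 CPM in negative, low and high cells (SD, n = 3). It fell in each comparison, by 0.30 at low and by 0.91 at high expression.

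Core histone genes rose in both groups. At low expression 10 of 11 H2A, 12 of 14 H2B, 8 of 8 H3 and 8 of 9 H4 genes rose, and at high expression 10 of 11, 12 of 14, 8 of 8 and 9 of 9. The overlapping pseudogenes H2BC19P and H2BC20P fell by 0.55 and 0.30 at low expression and were not called at high expression. H2AC11 had 51.1, 57.5 and 58.9 CPM in negative, 123, 131 and 124 CPM in low and 65.4, 64.8 and 67.6 CPM in high libraries. The groups did not overlap, and high lay close above negative. H2AC11 was 2.26-fold higher at low expression (edgeR adjusted p = 6.98e-17), 1.18-fold higher at high expression (edgeR adjusted p = 0.00035) and 0.93 lower on the log2 scale at high than at low. H3C2, the most abundant H3 gene, averaged 82.0 ± 2.75, 208 ± 7.77 and 144.8 ± 1.08 CPM in negative, low and high cells (SD, n = 3). H2BC12 averaged 85.3 ± 1.16, 163 ± 2.48 and 144 ± 7.56 CPM, and H4C3 averaged 59.8 ± 4.72, 126 ± 0.652 and 119 ± 8.17 CPM in the same order.

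The largest relative rises came from low-level genes of the chromosome 1 cluster. H4C14 had 1.90, 1.42 and 0.856 CPM in negative, 11.2, 10.8 and 10.8 CPM in low and 7.33, 9.41 and 9.93 CPM in high libraries. Low was highest and negative lowest, without overlap. H4C14 was 7.78-fold higher at low (edgeR adjusted p = 5.06e-14) and 6.28-fold higher at high expression, and high lay below low by 0.31 (edgeR adjusted p = 0.0369), a difference not called by DESeq2 or without high replicate 1 or any 1 of the low replicates (adjusted p of 0.0722 to 0.285 in these edgeR fits). H4C15, H3C14 and H3C15 were 8.89-fold, 8.61-fold and 9.46-fold higher at low and 7.36-fold, 6.38-fold and 6.27-fold higher at high expression. These 4 genes are 2 pairs of near-identical copies: the H3C14 and H3C15 models of 1656 bases have 0 mismatches, and so do those of H4C14 and H4C15 over 610 bases. Each H4 gene also shares 173 exon bases with its H3 neighbour on the opposite strand, so how reads were divided among the 4 is uncertain. H3C14 and H3C15 had passed the filter only through the LifeAct-expressing groups, so a difference from negative cells was built into their values. H2AC18 and H2AC19, in the same cluster, were 4.21-fold and 4.22-fold higher at low and 3.28-fold and 3.31-fold higher at high expression.

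On chromosome 6, H3C12 was 3.71-fold and H2BC14 3.02-fold higher at low expression, 1.81-fold and 1.51-fold at high. Against low, both fell at high expression, H3C12 by 1.03 and H2BC14 by 1.00. H2AC13, H3C13, H2BC13, H3C3 and H2BC6 fell there by 1.04, 1.02, 1.02, 0.97 and 0.97. H4C8 and H2BC18 differed less between high and low, by -0.03 (edgeR adjusted p = 0.731) and by -0.19 (edgeR adjusted p = 0.00117). H4C8 averaged 30.3 ± 3.62, 76.3 ± 1.02 and 75.0 ± 6.90 CPM in negative, low and high cells, and H2BC18 averaged 45.8 ± 0.539, 120 ± 3.56 and 105 ± 4.39 CPM (SD, n = 3).

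H4C9 differed from the other H4 genes. It had 7.11, 8.87 and 9.04 CPM in negative, 8.48, 10.2 and 8.43 CPM in low and 16.9, 19.7 and 17.6 CPM in high libraries. Negative and low overlapped, and high lay above both. The low difference of 0.11 did not pass (edgeR adjusted p = 0.455), and H4C9 was 2.16-fold higher at high expression than in negative cells (edgeR adjusted p = 2.97e-10). Against low it was 2.00-fold higher (edgeR adjusted p = 3.37e-09), the one member called higher there. Without a filter 3 members were called higher, and without low replicate 3 the count was 2.

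Genes of DNA replication and most histone chaperones were higher in both LifeAct groups, while histone variants and processing factors went both ways. The all-gene shares are those above, 26% higher and 23.6% lower at low and 36% and 35.2% at high expression. Of 21 replication genes 21 rose and 0 fell at low expression, with a median of 1.25, and likewise at high expression, with a median of 1.46. RRM2 was 3.67-fold higher at low and 5.27-fold higher at high expression, CDC6, which loads the MCM helicase, 3.49-fold and 6.47-fold, and MCM4 3.22-fold and 5.37-fold. Of 17 chaperones 11 rose and 1 fell at low and 14 rose and 1 fell at high expression, CHAF1A by 2.54-fold and 3.32-fold. Of 11 variants 5 rose and 4 fell at low and 6 rose and 4 fell at high expression, and of 20 processing factors 11 rose and 3 fell at low and 13 rose and 4 fell at high expression. SLBP averaged 37.9 ± 1.98, 53.6 ± 2.07 and 71.3 ± 2.18 CPM in negative, low and high cells (SD, n = 3). H2AX, the variant phosphorylated at DNA breaks, was 2.15-fold and 2.74-fold higher. High against low, 14 of 21 replication genes rose and 2 fell while 32 of the 44 clustered histone members tested fell. In that comparison 26.6% of all genes rose and 23.7% fell. The part of cell-cycle state in these differences was not tested.

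The same gene could stand at very different levels in the 2 human experiments, which were normalized separately. H2BC21 averaged 118 ± 7.55 CPM in LifeAct-negative cells and 0.428 ± 0.0862 CPM in polyadenylated control RNA, while H4C9 averaged 8.34 ± 1.07 and 8.41 ± 0.926 CPM (SD, n = 3). RNA selection and experiment cannot be told apart in these values, and no test was made.

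The members were not expressed evenly along the clusters. From H4C4 to H2BC10, chr6:26188710-26273412, 19 neighbouring members, 15 of them protein-coding, had at most 7 counts in any LM2 library and 10 in any LifeAct library, 203 counts in all over the 18 human libraries. This stretch of 84.7 kb includes H1-3 and H2AC8. A second stretch from H2AC15 to H4C13, chr6:27837880-27873534, held 6 such members over 35.7 kb, with at most 0 and 7 counts and 55 counts in all. The whole H2AC15 model of 496 bases lies under exons of H2BC15 on the other strand, and in the first stretch 486 bases of H3C4 and 435 of H2AC7 lie under AL031777.2 on the same strand. How reads shared by 2 names were counted bears on the low counts of these 3 members, and its part was not tested. A stretch from H2AC1 to H1-1 at the left end of the region also held 6 members with at most 2 and 9 counts, but the unrelated gene TRIM38 inside it had 25668 counts summed over the LM2 and 14091 over the LifeAct libraries. Members just outside the first 2 stretches, such as H2BC6, H4C8, H3C12 and H2BC17, passed the filter in the LifeAct experiment, as did H2BC15, which starts before the second stretch and overlaps it. Members of the stretches were named after their counts were seen, and whether they are not transcribed, lost from these cells or not mappable was not tested.

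**Figure D5:**
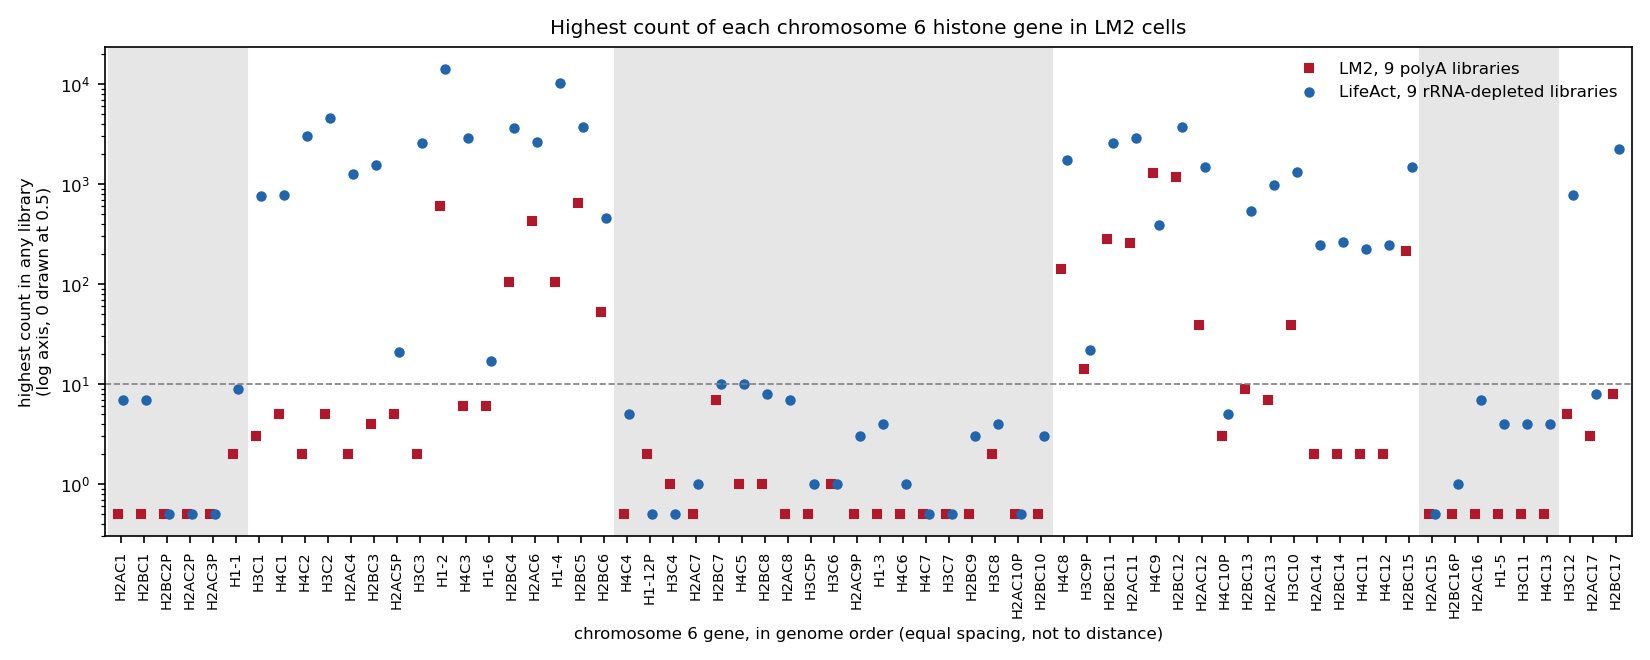
Human histone members of chromosome 6 in their order along the clusters, with the highest count in any LM2 library and in any LifeAct library on a log axis, 0 drawn at the bottom and a dashed line at 10 counts. The 3 shaded stretches hold neighbouring members at 10 counts or fewer in each of the 18 libraries, 1 of them at the left end and 2 between expressed neighbours.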

How the data were processed

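Deposited values are whole read-pair counts per gene name, made by the authors with featureCounts 2.0.1 on STAR alignments (version not stated there) against Ensembl 103 (GRCh38) or Ensembl 102 (GRCm38), per the file headers. The headers list paired counting of exons by gene name and no strand option. The submitters' processing notes also list DESeq2, hg38 and mm10. Per the labels, extraction used TRIzol and reads were paired-end. All 27 count columns were mapped to samples and 0 were left unmapped.

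Each table was filtered (edgeR filterByExpr, minimum count 10), scaled by TMM and fitted over its 3 groups with edgeR's quasi-likelihood test (edgeR 4.0.16, R 4.3.3), with Benjamini-Hochberg adjustment over all 18893, 16297 and 21869 genes tested in LM2, 4T1 and LifeAct. CPM use TMM-scaled totals, and CPM per kb divide by exon length. The test was checked on simulated counts. Alternatives were DESeq2 1.42.0 and its size factors, library totals, no filter, the 2 groups only, each replicate left out and a replicate block.

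Members and lists were chosen with earlier results of these data known. The genes named were 3 fixed markers, the 8 members highest in CPM per kb in each experiment, up to 8 called rises and 8 called falls per comparison above 1 CPM, members with unusual annotation, and up to 4 genes of smallest p per related list. Others are said to have been chosen after their values were seen or are counted by class. Line differences used names matched by letter case, with mouse H1f2 and H1f4 paired to H1-2 and H1-4 by number, since the mouse table does not use the older names first assumed. Core histones were left out of it. Intervals and floors cover counting error only.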

Additional observations from a re-analysis of the deposited data

Results flagged for a closer look

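The response to caMKL1 differed between the 4T1 and LM2 lines for both linker histone genes with enough counts in each line, by an interaction test over all matched genes. That test called 60.3% of the 13116 genes tested, so a call alone does not set these 2 genes apart. For H1-2 (mouse H1f2) the difference, 4T1 minus LM2, was 0.73 on the log2 scale (edgeR quasi-likelihood adjusted p = 0.0271), with a rise in both lines. For H1-4 (mouse H1f4) it was -4.62 (edgeR adjusted p = 4.21e-08), with a rise in LM2 and a fall in 4T1. Both kept their call and direction under DESeq2's size factors, library totals (1.06 and -4.29) and a replicate block (0.75 and -4.58). Without replicate 1 of caMKL1 and MKL1 in LM2 the values were 0.79 and -4.47, both called. With single replicates left out, H1-4 stayed called, while H1-2 was 0.62 and not called (edgeR adjusted p = 0.0657) without 4T1 control replicate 1. H1f4 stood at 1.07 CPM or less in the 4T1 group means, its caMKL1 and control libraries overlapped, and the mouse genes were paired with the human ones by number alone.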

How the results depend on the processing

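Of the counts of called members under the alternatives, 203 stayed within 1.5 times the reported count and 19 moved further. Scaling by library totals gave 2 lower for LM2 caMKL1 against control and 2 against MKL1. Leaving out single replicates gave 1 to 2 lower in both (2 without control replicate 2 and without MKL1 replicate 1). In 4T1, MKL1 gave 1 lower under library totals, the 2-group fit and the replicate block, and 0 to 1 with replicates left out (1 without MKL1 replicate 3). For 4T1 caMKL1 against control, DESeq2 gave 8 higher and 1 lower, no filter 9 and 2, and left-out replicates 4 to 7 higher. Against MKL1, no filter gave 8 higher, and left-out replicates gave 5 to 7 (7 without MKL1 replicate 2 or 3). For LifeAct high against low, no filter gave 3 higher, and left-out replicates 1 to 2 (2 without low replicate 3). For the line differences, fits with single replicates left out were added after seeing the data. They gave 0.62 to 0.98 for H1-2 and -4.92 to -4.27 for H1-4 with caMKL1, with H1-2 not called without 4T1 control replicate 1 (0.62). With MKL1 they gave -0.01 to 0.51 for H1-2, below 0 without 4T1 MKL1 replicate 3 (-0.01), and -1.59 to -0.94 for H1-4, called without 4T1 control replicate 2 (-1.59). The cause was not tested. Named genes kept direction and call in 1341 cases, 13 were weaker, 5 stronger and 9 reversed. The reversals were MKL1 log2 differences close to 0. In LM2, H1-10 was -0.21 without MKL1 replicate 1 and -0.20 without replicate 1 of both overexpression groups, and H2AC11 ran from -0.18 to 0.08 with single replicates left out, above 0 without MKL1 replicate 2 (0.08) and control replicate 2 (0.05). In 4T1, H4c14 ran from -0.71 to 0.36, above 0 without MKL1 replicate 1, MKL1 replicate 3 and control replicate 2 (0.06, 0.17 and 0.36), and H2bc8 was -0.24 and -0.01 without MKL1 replicate 2 and control replicate 1.

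Whether replicate numbers pair samples is not given by the labels, and correlations of same-numbered deviations ran from -0.04 to 0.30. The replicate block changed 2 counts, to 1 lower for MKL1 in 4T1 and to 35 lower for LifeAct high against low. Poly(A)-selected libraries hold few histone counts, so most members could not be tested there, and a low count does not show absence.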
